A study of Homo sapiens with 6 samples.

Results

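Matrix glycoproteins of fibrosis are the non-collagen proteins that fibrogenic cells secrete around themselves, and 10 genes were chosen by name for this description: FN1, TNC, SPARC, POSTN, THBS1, THBS2, FBN1, TGFBI, ELN and LUM. The table held rows for 9 of them among its 33900 genes, and ELN was not analysed here. The human hepatic stellate cell line LX-2, labelled wild type and grown in medium with serum, was treated for 48 h with recombinant human Sema3C (rhSema3C), a secreted semaphorin, at 300 ng/ml, or with PBS as the control. Each treatment had 3 samples, and the labels call them biological replicates without saying whether they came from separate cultures. The p-values therefore measure the spread between these samples, all of a single cell line.

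In an injured liver, activated stellate cells lay down a provisional matrix of fibronectin, on which collagen fibres and fibrillin microfibrils are then assembled. Matricellular proteins such as the thrombospondins, tenascin-C, periostin and SPARC are added to this matrix and change how cells attach to it through integrins. Fibrillin-1 and thrombospondin-1 also bear on TGF-β, since microfibrils store its latent form and thrombospondin-1 can activate it.

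The total counts on genes were between 68267808 and 89245585 per sample. Genes of the mitochondrial genome held 4.75% to 5.42% of them in PBS and 3.73% to 3.93% with rhSema3C. Of 8 markers of stellate cells and myofibroblasts, VIM, COL6A1, COL1A1, COL3A1, ACTA2 and PDGFRB were present, with VIM at a mean of 1035 FPKM in PBS. COL1A2 and DES were nearly absent, at 0.130 and 0.0072 FPKM in PBS. The summed level of the 8 was 1250.4 to 1300.4 FPKM in PBS and 1009.8 to 1082 with rhSema3C. Of 6 tested, COL1A1, ACTA2, VIM and COL3A1 were lower at an adjusted p of 0.05 by edgeR. COL6A1 and PDGFRB did not pass, and 30.6% of all genes tested were lower. With FPKM rescaled to the same total in each sample, limma called 4 lower and 2 higher. FPKM is the deposited count scaled by transcript length and library size. Markers of other cell types were not all low. The 5 of 6 hepatocyte genes with a row summed to 2.67 to 3.24 FPKM in PBS and 3.52 to 4.14 with rhSema3C. Nearly all of it came from SERPINA1. ALB was at 0.01 FPKM in PBS and listed at 0 with rhSema3C. In PBS the cholangiocyte markers SOX9 and KRT7 had means of 9.94 and 2.95 FPKM, against 4.69 for PDGFRB. KRT19 and EPCAM, of the same list, were at 0.418 and 0.0078 FPKM in PBS and 0.193 and 0.0156 with rhSema3C. Over 4 cholangiocyte genes the sum was 12.4 to 14.7 in PBS and 8.60 to 9.31 with rhSema3C, mostly from SOX9. Over 4 endothelial genes it was 0.797 to 1.05 and 1.26 to 1.67, and over 4 leukocyte genes 0.691 to 0.846 and 0.601 to 0.735. Of the endothelial genes, VWF had means of 0.101 and 0.659 FPKM in PBS and with rhSema3C. Its mean over the 6 samples, 0.38, was below the 0.5 FPKM needed for testing. KDR was at 0.723 and 0.720 FPKM (edgeR adjusted p = 0.63), PECAM1 at 0.058 and 0.059 and CDH5 at 0.0029 and 0.0097. The part of these markers in the results was not tested. With the mitochondrial genes left out of the libraries, 2 of the genes described here were higher and 4 lower, the counts found with them.

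The matrix glycoprotein genes did not move together. Thrombospondin-1 (THBS1) fell to 0.416 times its PBS level, TGFBI, TNC and SPARC fell by smaller amounts, and THBS2 and FBN1 rose. FN1 and LUM did not pass the test. Of the 9 genes, 8 had a mean level of at least 0.5 FPKM and were tested, and POSTN did not reach it. By the quasi-likelihood test of edgeR on counts scaled with TMM factors, 4 of the 8 were lower and 2 higher at an adjusted p of 0.05. That is 75% of those tested, where 62.3% of the 14178 genes tested passed, 30.6% lower and 31.7% higher, so the share of called genes was close to the background. Their median log2 fold change was -0.16, and over all genes tested it was 0.02. Only THBS1 passed a fold change of 2 with an unadjusted p of 0.05, which 5.54% of all genes did and 2.12% did in the lower direction. Fewer cells making a transcript and less of it per cell cannot be told apart in these bulk samples.

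**Figure D1:**
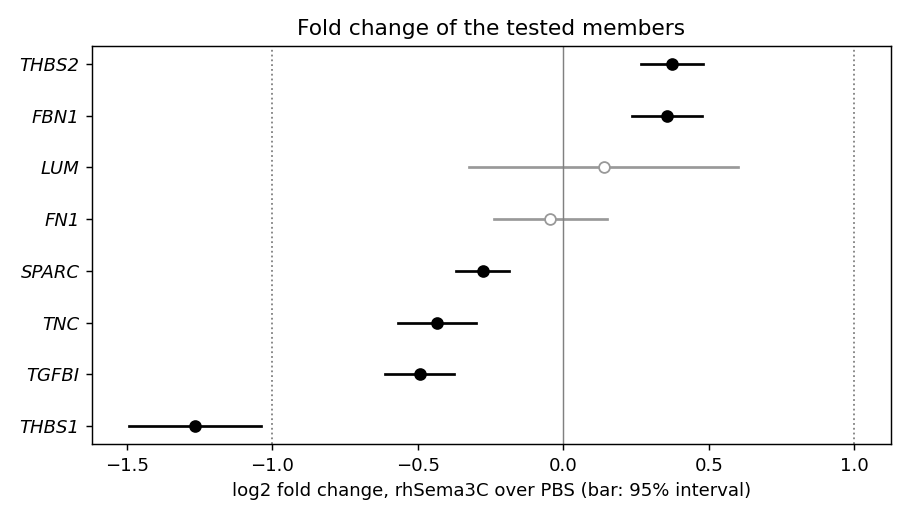
Log2 fold change of the 8 tested genes, rhSema3C over PBS, with 95% intervals from edgeR as bars. Filled points passed an adjusted p of 0.05, open points did not, and dotted lines mark a fold change of 2. THBS1 lies apart at -1.27, 3 genes fall between -0.49 and -0.28, and FBN1 and THBS2 lie at 0.36 and 0.37.

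Levels differed more between the genes than between the treatments. Per length, SPARC, a collagen-binding matricellular protein, was the most abundant at 113.8 ± 2.71 FPKM in PBS (SD, n = 3 per group, as in each such value). THBS2, TNC, FN1 and TGFBI followed with means of 51.0, 50.5, 43.2 and 39.8 FPKM, and each of them overlapped the next in this order. THBS1 at 11.5 ± 1.47 and FBN1 at 6.96 ± 0.513 FPKM were lower and did not overlap. LUM at 1.19 ± 0.265 and POSTN at 0.368 ± 0.0702 FPKM were the least abundant. With rhSema3C, SPARC stayed first at 100.8 ± 2.79 FPKM and THBS2 stood second at a mean of 71.0 (range 69.3 to 73.2), now above the range of every gene below it. FN1 and TNC, at 45.0 and 40.1 FPKM, still overlapped each other. FBN1 at 9.58 ± 0.368 FPKM now stood above THBS1 at 5.15 ± 0.665, the reverse of their order in PBS. Summed over the 9 genes, the level was 298.6, 320.9 and 335.7 FPKM in the PBS samples and 316.5, 291.2 and 303.1 FPKM with rhSema3C, so the groups overlapped.

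**Figure D2:**
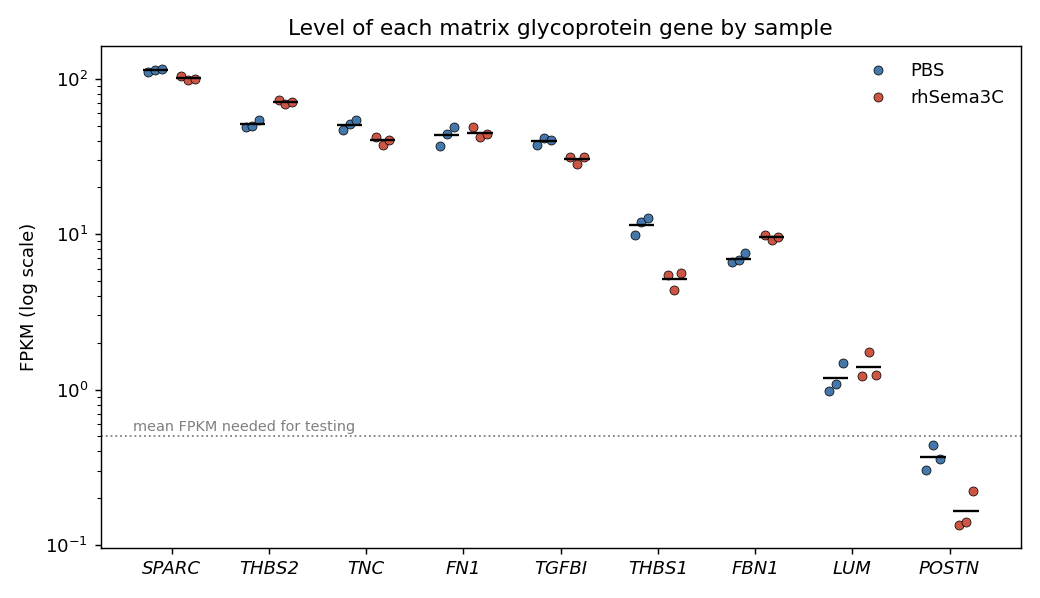
FPKM on a log axis for each of the 9 genes, with 3 points per treatment and a line at the mean. The genes are ordered by their PBS mean, from SPARC at 113.8 to POSTN at 0.368, and the dotted line marks the 0.5 FPKM needed for testing. FBN1 and THBS1 change places between the treatments.

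FN1 (ENSG00000115414, chr2:215360440-215436073, minus strand, GRCh38 as are the other positions) encodes fibronectin, the scaffold on which other matrix proteins assemble. In CPM, the counts scaled to library size with TMM factors, the PBS samples were at 673, 809 and 886 in order of replicate number. The rhSema3C samples were at 832, 714 and 751. The groups overlapped, and the PBS samples alone spanned the whole range of the treated samples. On the log2 scale the change was -0.044 (SE 0.088, adjusted p = 0.68, edgeR). Its 95% interval, from -0.24 to 0.15, leaves room for a small change in either direction, and the sign differed between the scalings.

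THBS1 (ENSG00000137801, chr15:39581079-39599466, plus strand) encodes thrombospondin-1, a trimeric matricellular protein that binds CD47 and integrins. Its CPM were 95.8, 117.8 and 122.7 in the PBS samples and 49.6, 39.7 and 50.5 in the rhSema3C samples. Every treated sample lay below every PBS sample, as for 67.8% of all genes tested in one direction or the other. On the log2 scale the change was -1.27 (SE 0.10, adjusted p = 1.4e-06, edgeR), a level of 0.416 times that in PBS, with a 95% interval from 0.355 to 0.487. Among all genes tested, 2.55% changed by as much or more in either direction. Between 3649 and 4301 counts per treated sample lie behind these values.

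THBS2 (ENSG00000186340, chr6:169215780-169254044, minus strand) encodes thrombospondin-2, a close relative that also binds CD47 and limits vessel growth. It moved the other way, with CPM of 333, 340.2 and 369 in PBS and 465, 439 and 445 with rhSema3C. No treated sample overlapped a PBS sample. On the log2 scale the change was 0.37 (SE 0.05, adjusted p = 4.5e-05, edgeR), a rise of 29.6%. Within each sample, the ratio of THBS2 to THBS1 in FPKM does not depend on how samples are scaled to each other. It was 4.96, 4.12 and 4.29 in PBS and 13.4, 15.8 and 12.6 with rhSema3C, a 3.12-fold higher ratio.

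The promoters of the pair are shown because these paralogs parted, with FBN1 and SPARC beside them because they hold the same letters. Capitals mark GGAATG, or CATTCC on the other strand, the core letters recognised by TEAD factors. The sequences come from RefSeq on GRCh38.p14 and are read 5′ to 3′ on the strand of the gene. For THBS1 (chr15:39580829-39581078, plus strand) and FBN1 (chr15:48644971-48645220, minus strand) the 250 bases before the RefSeq start are given. The RefSeq start of FBN1 lies 751 bases inside the gene as the table gives it, so its window and match fall within the gene. GENCODE 29 has 0 exon bases in the FBN1 window shown. The RefSeq starts of THBS2 and SPARC lie 198 and 60 bases inside the gene, so their matches fall within it, and GENCODE 29 exons cover 105 and 250 of the 250 bases before those starts. For THBS2 (chr6:169253926-169253955, minus strand) and SPARC (chr5:151686915-151686944, minus strand) 30 bases around the match are given.
THBS1: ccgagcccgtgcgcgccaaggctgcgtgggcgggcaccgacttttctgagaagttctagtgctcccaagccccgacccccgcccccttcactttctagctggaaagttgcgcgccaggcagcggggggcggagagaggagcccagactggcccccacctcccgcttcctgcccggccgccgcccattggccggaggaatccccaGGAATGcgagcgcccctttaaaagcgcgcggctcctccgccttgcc
FBN1: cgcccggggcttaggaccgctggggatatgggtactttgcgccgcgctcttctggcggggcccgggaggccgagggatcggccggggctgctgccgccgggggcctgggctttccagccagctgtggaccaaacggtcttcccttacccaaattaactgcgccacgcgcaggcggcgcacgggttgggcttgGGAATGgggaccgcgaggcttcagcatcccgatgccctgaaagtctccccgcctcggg
THBS2: tgatgtCATTCCttcgaaGGAATGaattaa
SPARC: taaacccctccaCATTCCcgcggtccttca
The match began 46 bases before the start in THBS1, 58 in FBN1 and 17 in SPARC, and THBS2 held a pair on opposite strands, at 103 and 91 bases. The RefSeq table gave a promoter, 250 bases before to 50 after the start, for 8 of the 9 genes. Both strands were searched, and 4 of the 8 held the letters, as did 14.0% of 35116 promoters of the same length. The 4 holders were THBS1 and SPARC, which were lower, and THBS2 and FBN1, which were higher. Other letters were found in 1 to 4 of the 8. The cyclic AMP response element TGACGTCA stood in FN1, beside 1.85% of all promoters, and the AP-1 letters TGANTCA stood in POSTN, beside 7.71%. For SMAD proteins, CAGACA was found in TNC and THBS2, beside 16.9%. The letters ATATAA of a core promoter box were held by FN1, TNC, POSTN and THBS2, beside 8.26%. A GC box, GGGCGG, was found in FN1, TNC, THBS1 and TGFBI, beside 45.0%. No CArG box, the site of SRF, was found in these windows, and 1.29% of all promoters held one. The motifs were chosen after these promoters had been seen, so the shares set beside them are no test of enrichment. A match is a description of letters and not of a bound site.

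TNC (ENSG00000041982, chr9:115019575-115118257, minus strand) encodes tenascin-C, a large hexameric glycoprotein that loosens adhesion to fibronectin and appears at sites of injury. Its CPM were 474, 524 and 550.3 in PBS and 404, 357 and 385 with rhSema3C, without overlap. On the log2 scale the change was -0.43 (SE 0.06, adjusted p = 9.1e-05, edgeR), so the level decreased by 25.9%. The ratio of FN1 to TNC in FPKM was 0.794, 0.865 and 0.902 in PBS and 1.15, 1.12 and 1.09 with rhSema3C. Relative to tenascin-C, fibronectin mRNA was thus higher in each treated sample, although FN1 itself did not pass the test.

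TGFBI (ENSG00000120708, chr5:136028988-136063818, plus strand), a protein of FAS1 domains named for its induction by TGF-β, binds collagens and integrins. Its CPM were 308, 341 and 330.1 in PBS and 241, 217 and 237 with rhSema3C. The groups did not overlap, and the log2 change was -0.49 (SE 0.05, adjusted p = 1.2e-05, edgeR), a level of 0.71 times that in PBS. The ratio of TGFBI to TNC was 0.811, 0.813 and 0.749 in PBS and 0.746, 0.758 and 0.768 with rhSema3C, so it overlapped between the treatments. POSTN (ENSG00000133110, chr13:37562583-37598844, minus strand) encodes periostin, a relative of TGFBI with the same FAS1 domains. It had few counts, with 153, 185 and 139 in PBS and 64, 71 and 103 with rhSema3C. Its CPM were 1.78, 2.64 and 2.10 in PBS and 0.739, 0.773 and 1.23 with rhSema3C, without overlap. When all 33900 genes were tested, its log2 change was -1.26 (SE 0.28, adjusted p = 0.0081, edgeR). In that fit 12.3% of the genes were called lower, a share that counts genes below the 0.5 FPKM filter. Of the 14178 genes that passed the filter, 30.6% were called lower when tested on their own.

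SPARC (ENSG00000113140, chr5:151661096-151686975, minus strand) had CPM of 544, 568 and 568 in PBS and 478, 452 and 457 with rhSema3C. The groups did not overlap, although the difference was the smallest among the called genes, with a log2 change of -0.28 (SE 0.04, adjusted p = 0.00014, edgeR). Its call was lost in 1 setting. With FPKM rescaled to TPM, which makes the values of each sample sum to the same total, it was -0.05 with an adjusted p of 0.32 by limma.

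FBN1 (ENSG00000166147, chr15:48408313-48645721, minus strand) encodes fibrillin-1, the backbone of the microfibrils on which elastic fibres form. Its CPM were 111.6, 115.9 and 127.8 in PBS and 157.2, 145.3 and 152.5 with rhSema3C. Each treated sample was above each PBS sample, with a log2 change of 0.36 (SE 0.05, adjusted p = 0.00016, edgeR) and a 95% interval from 0.24 to 0.48. The ratio of FBN1 to TGFBI in FPKM was 0.174, 0.164 and 0.186 in PBS and 0.314, 0.323 and 0.31 with rhSema3C, a 1.81-fold higher ratio. LUM (ENSG00000139329, chr12:91102629-91111494, minus strand) encodes lumican, a small leucine-rich proteoglycan that binds collagen fibrils. It had 240, 219 and 278 counts in PBS and 283, 424 and 272 with rhSema3C, and CPM of 2.79, 3.13 and 4.21 against 3.27, 4.61 and 3.25. These overlapped, with a log2 change of 0.14 (SE 0.21, adjusted p = 0.58, edgeR) and a wide 95% interval, from -0.32 to 0.60.

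**Figure D3:**
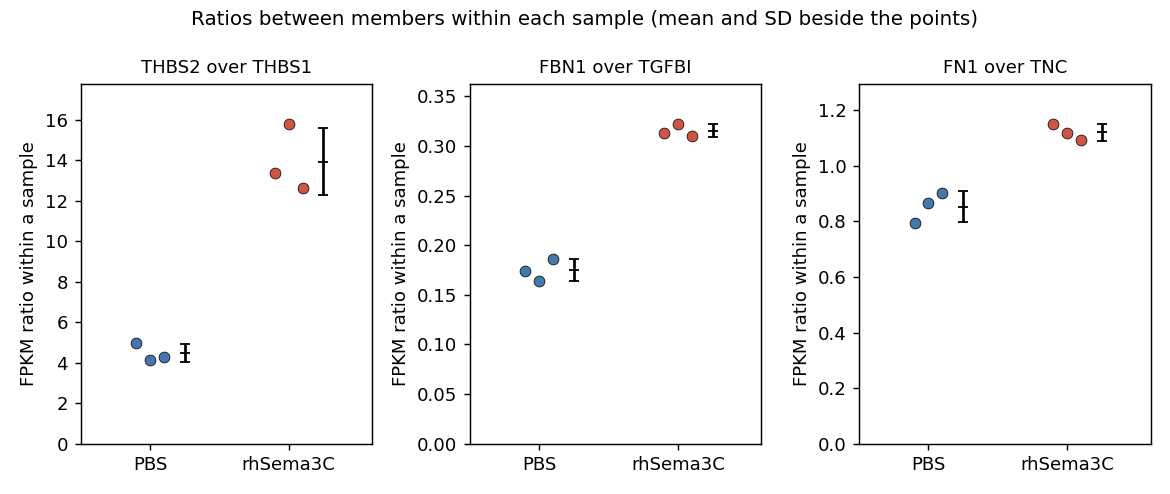
Ratio of 2 genes in FPKM within each sample, with 3 points per treatment and the mean with its SD beside them. THBS2 over THBS1 was between 4.12 and 4.96 in PBS and between 12.6 and 15.8 with rhSema3C, and FBN1 over TGFBI and FN1 over TNC did not overlap between the treatments either.

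The pairs used for these ratios were chosen after the values had been seen, so the ratios carry no test. For 6 of the 8 tested genes the treated and PBS samples did not overlap in CPM, a share close to the 67.8% of all genes tested. POSTN did not overlap either, and each of these 7 had the smallest two-sided p that exact permutation of these 6 samples allows, 0.1. PBS replicate 1 held the lowest CPM of the PBS samples for 9 of 9 genes, and rhSema3C replicate 2 the lowest of the treated samples for 7 of 9. With each sample left out in turn, all 6 calls stood, and the log2 fold change of THBS1 stayed between -1.37 and -1.16. Genes that overlap a member were scarce in these libraries. FSIP1, on the strand opposite THBS1, had between 69 and 134 counts, and an antisense gene without exon bases in common with THBS2 had between 107 and 226. CLMAT3, opposite SPARC, had at most 35 counts and DEC1, opposite TNC, at most 14.

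The balance of falls and rises differed between settings. With library size alone the median log2 fold change over all genes tested moved from 0.02 to 0.13, and with TPM to 0.23, where 74.1% of all calls were rises in place of 50.9%. The TPM values were tested with limma on log2(TPM + 1), so the test and the pseudocount changed together with the scaling. The summed FPKM of a sample was between 288169 and 297339 in PBS and between 265983 and 268533 with rhSema3C. With TPM the log2 change of THBS1 was -1.002, and the values were -0.26 for TGFBI and -0.20 for TNC, still called lower, and 0.60 for THBS2 and 0.57 for FBN1, still called higher, while the median over the 8 genes went from -0.16 to 0.07.

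**Figure D4:**
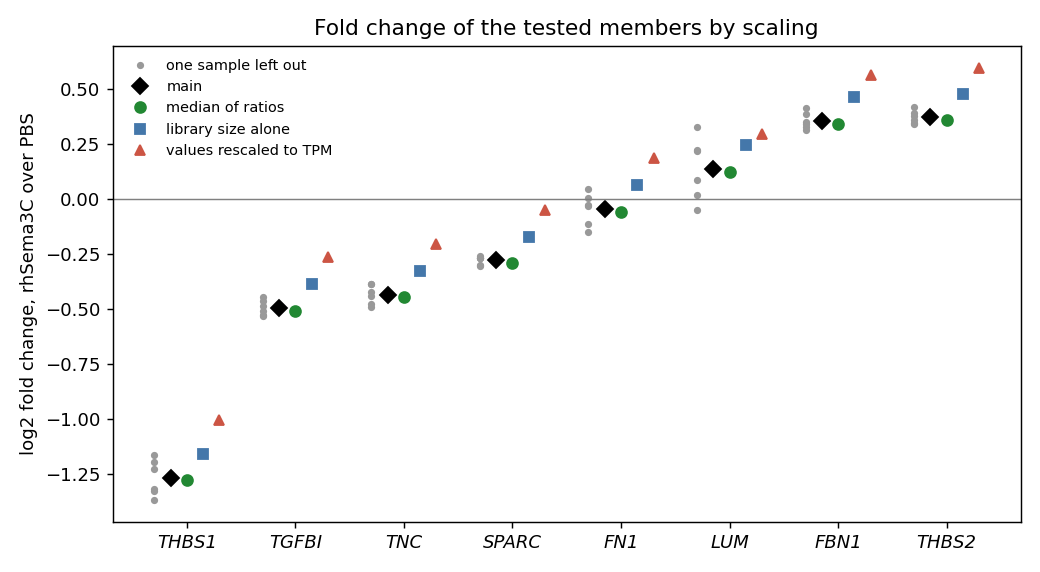
Log2 fold change of each tested gene, rhSema3C over PBS, under TMM (main), median-of-ratios, library size alone and TPM scaling, with grey points for the fits that left out 1 sample each. THBS1, TGFBI, TNC and SPARC stay below 0 and FBN1 and THBS2 above it in all fits shown, and FN1 and LUM have points on both sides.

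Relatives of these genes by family were mostly higher. Of 15 listed, 12 had a row and 5 were expressed enough to test. Of these 5, 4 were higher and 1 lower, counts that were the same with library size alone and with TPM. Beside this list and those below, 31.7% of all 14178 genes tested were higher and 30.6% lower. THBS3, another thrombospondin, rose from 4.26 ± 0.392 to 8.78 ± 0.186 CPM, with a log2 fold change of 1.04. SPOCK1, a proteoglycan of the SPARC family, rose by 0.62, and FBN2, fibrillin-2 of the developing microfibril, by 0.32 on the log2 scale. TNXB, tenascin-X, named here after its value was seen since it lies below the level set for naming, rose by 0.59. FSTL1, a secreted SPARC relative, was the one that fell, with a log2 fold change of -0.39.

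Partners of fibrillin in elastic fibres and microfibrils split evenly, with 5 higher, 5 lower and 2 not called of 12 tested, although with TPM 2 were lower. LOX, the enzyme that crosslinks collagen and elastin, rose from 47.2 ± 2.54 to 97.4 ± 2.57 CPM, and LTBP1, which anchors latent TGF-β to the matrix, rose by 0.64 on the log2 scale. Its relatives LTBP2 and LTBP3 both had log2 fold changes of -0.55, while LTBP4, named after its value was seen, rose by 0.21.

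Receptors for these proteins were more often lower, with 6 lower, 2 higher and 3 not called of 11 tested, but with TPM 4 were lower and 5 higher. The syndecans SDC1 and SDC4, heparan sulfate coreceptors for fibronectin, had log2 fold changes of -0.68 and -0.55. The integrin subunits ITGB5 and ITGB3, which pair with the αv chain, had -0.54 and -0.51. ITGB1, the partner of α5 in the fibronectin receptor, was not called, with a log2 change of -0.041 (edgeR adjusted p = 0.46). ITGA5, the α5 chain, was lower, with -0.28 (edgeR adjusted p = 0.00018), and its value with TPM was -0.05. The receptors that rose were ITGAV, the αv chain itself, by 0.31 and CD47, which binds thrombospondins, by 0.25 on the log2 scale. ITGB1, ITGA5, ITGAV and CD47 are named outside the rule for naming genes, after their values were seen.

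Genes of TGF-β and its response were mostly lower under TMM scaling, with 7 lower, 1 higher and 1 not called of 9 tested. With library size alone 4 were lower and 1 higher, and with TPM 4 were lower and 2 higher. CCN2, a matricellular target of TGF-β, fell from 167.2 ± 4.19 to 31.6 ± 0.931 CPM, with a log2 fold change of -2.40 (SE 0.05, edgeR). TGFB2 and TGFB1, the ligands, had log2 fold changes of -1.01 and -0.54. TGFBR1, the type I receptor, was the one that rose, by 0.40. It was named after its value was seen.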

How the data were processed

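RNA sequencing covered 3 rhSema3C-treated and 3 PBS-treated LX-2 samples, grouped by their titles. Read counts per gene, as whole numbers, were deposited together with FPKM, which the authors scaled to transcript length and library size. Cufflinks and cuffmerge appear in the study's methods, which call genes at a 2-fold change with p under 0.05. How reads were aligned and counted, with which strand setting and on which genome build, is not given in the sources used here. Coordinates of the genes described matched GENCODE 29 on GRCh38 within 337 bases.

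The filter was 0.5 FPKM as the mean of the 6 samples. Testing used edgeR 4.0.16 (R 4.3.3) by glmQLFit and glmQLFTest on the deposited counts with TMM factors, with Benjamini-Hochberg adjustment over all 14178 genes. Standard errors (SE) and 95% intervals came from the same fit and reflect the spread between samples. Alternatives were median-of-ratios factors, library size alone, libraries without mitochondrial genes, other filters, DESeq2 1.42.0, limma 3.58.1 on log2 FPKM or TPM with a pseudocount, a block for the replicate number, and leaving out each sample. The edgeR, DESeq2 and limma steps were tested on simulated data first. That simulation changed few genes, so it did not test the scaling in data where 62.3% of the genes tested were called. Replicates of a group differed by 12.6 to 20.4 in chi-square per degree of freedom, so none was a copy of another.

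The members and all lists were chosen with earlier results of these data known, and the motifs after the promoters had been seen. From each related list, up to 4 genes past an adjusted p of 0.05 and above a mean of 1 FPKM were named by the size of their change. A gene that this rule names is not reported here. Genes without a row in the table, among them ELN, were not analysed here. Figures were drawn with matplotlib 3.10.9.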

Additional observations from a re-analysis of the deposited data

How the results depend on the processing

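The counts of 2 genes higher and 4 lower held under each alternative run except that 3 were lower with TPM, where SPARC was no longer called, and 5 lower with all 33900 genes tested, where POSTN entered. With all genes tested, 2 genes passed a fold change of 2 in place of 1. The sign of FN1 was not stable. Its log2 change was 0.063 with library size alone, 0.065 and 0.063 with pseudocounts of 0.1 and 1 on log2 FPKM, 0.057 with genes of at least 5 FPKM and 0.19 with TPM. It ranged from -0.15 to 0.047 with each sample left out, above 0 without PBS replicate 3 or rhSema3C replicate 2. For LUM that range was -0.048 to 0.33, below 0 without rhSema3C replicate 2. LUM, with 219 to 424 counts per sample, and POSTN, with 64 to 185, had the least precise values. The labels do not say whether the replicate numbers pair the samples, and with 3 samples per group correlations cannot settle it. Deviations from the group means correlated by 0.031, 0.093 and -0.024 between samples of the same number, and not every sample correlated best with its own number. With the replicate number as a block, 2 genes were higher and 4 lower as before, and 8341 genes were called in place of 8829. POSTN had a value only in the fit with all genes. The cause of these differences between settings was not tested.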

Other observations

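Glycoproteins of the basement membrane and other matrix glycoproteins were mostly not called. Of 20 tested, 4 were higher, 5 lower and 11 not called, but with TPM 12 were higher and 3 lower. HSPG2, which encodes perlecan, the large heparan sulfate proteoglycan of basement membranes, rose from 38.6 ± 3.58 to 71.3 ± 7.81 CPM, a log2 fold change of 0.88. MATN3, matrilin-3, rose by 0.74. LAMA4, the laminin α4 chain, and SPP1, osteopontin, had log2 fold changes of -0.81 and -0.75. LAMB3 and LAMC1, among the most abundant laminin chains here at 94.2 and 46.6 FPKM in PBS, had 0.12 each and were not called. They are named after their values were seen. Of 10 small leucine-rich proteoglycans, the family of LUM, 7 had a row and none reached the 0.5 FPKM needed for testing. DCN, decorin, was at 0.0098 FPKM in PBS.

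Among 311 other genes of at least 1 FPKM on average whose annotation in the table names the extracellular matrix, those with the pattern most like THBS1 over the 6 samples were FSCN1, CCN1 and MMP2. Their CPM, each centred on its own mean on the log2 scale, differed from THBS1 by a root mean square of 0.14, 0.14 and 0.15. The 6 samples include both treatments, so fold changes close to that of THBS1 follow from this choice. CCN1, a matricellular relative of CCN2, had a log2 fold change of -1.20, MMP2, a gelatinase, had -1.14 and FSCN1, an actin bundler, had -1.40. For TGFBI the nearest were ADGRG1, SH3PXD2A and LTBP2, at 0.026, 0.028 and 0.039, and for TNC they were CLU, PXDN and FBLN1, at 0.031, 0.032 and 0.040.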
